A study of Homo sapiens with 12 samples.

Results

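The Z5 line was compared with the Z2 line of HepG2, a widely used human liver cancer cell line that still secretes many proteins of blood plasma. The libraries were chosen by the line name in their titles: 3 wells of Z5 and 3 wells of Z2, which are 6 of the 12 libraries of the study. RNA was sequenced from 4 stable lines made with CRISPR vectors, each grown in 3 wells named a, b and c. The label of Z2 is a ZHX3-depleted genotype made with the construct sgZHX3-2, and the label of Z5 is the same genotype made with the construct sgZHX3-5. The other lines were Empty, labelled wild type and made with an empty CRISPR vector, and Z9, a ZHX3-depleted line made with sgZHX3-9. Constructs were delivered with a lipid reagent and cells were selected with blasticidin from 48 h after transfection, so all 4 lines share the transfection and the selection. Whether a line is 1 clone or a pool of cells is not given in the sources used here. With wells as replicates, a p-value reflects how much wells of the same line vary, which may be technical, and not how much independently made lines would vary.

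ZHX3 belongs to a small family of nuclear proteins with zinc fingers and homeoboxes. Its members pair with each other and have been described as repressors of transcription that bind the A subunit of NF-Y, a factor that recognises CCAAT boxes in promoters. Z2 and Z5 carry the same genotype label and differ in the guide, so a comparison between them shows how alike 2 lines with that label are. The size of a difference that the data would still allow is then as much a result as the genes that differ.

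Total counts ranged from 52465405 in Z2 b to 58036721 in Z5 a, within the range of 50864744 to 65428204 for the 12 libraries. The table held 26485 genes, 21343 of them with a count, and 15289 passed the filter on low counts and were tested. Levels are given as CPM, counts scaled to the library total after TMM scaling. The 12 hepatocyte and hepatoma markers were all present, with means over the 6 wells from 49.5 CPM to 12102 CPM for AFP, the fetal plasma protein alpha-fetoprotein. Their summed level was 52022 to 56886 CPM in Z2 wells and 54262 to 54702 in Z5 wells. Markers of other cells were low in both lines. The 7 fibroblast markers summed to 42.5 to 48.4 CPM in Z2 and 47.7 to 50.96 in Z5, with COL1A2 and DCN at 0, and the 6 endothelial markers to 8.14 to 9.09 and 7.004 to 7.47, with KDR and CLEC4G at 0. The 6 blood markers, mostly CD68, summed to 50.04 to 74.0 CPM in Z2 and 50.98 to 64.4 in Z5, with CD3E and MS4A1 at 0. The 6 markers of other epithelial lines, mostly EPCAM, summed to 161 to 169 CPM in Z2 and 157 to 162 in Z5, with KRT5, KRT14 and SFTPC at 0.

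Well b of Z2 stood apart from the other 5 wells. Genes were put into 5 bins of equal size by the GC content of their longest transcript, and the median deviation of Z2 b from the genes' means was 0.15 on the log2 scale in the bin with the lowest GC content and -0.17 in the bin with the highest. The 5 other wells stayed between -0.021 and 0.028 in every bin. By transcript length Z2 b went from -0.10 in the bin of shortest transcripts to 0.082 in that of the longest. RN7SL1, the RNA of the signal recognition particle, had 10780, 638 and 2249 counts in Z2 a, b and c and 6839, 5619 and 6996 in Z5 a, b and c. Its near-identical copy RN7SL2 had 10557, 924 and 4252 counts in Z2 and 11555, 9333 and 12594 in Z5, and reads of these copies may be split between them. Z2 b was lowest and Z2 c next to lowest for both. MALAT1, a nuclear noncoding RNA, had 5412 to 6606 counts in all 6 wells. The part of RNA quality or library preparation in these differences was not tested. Values without Z2 b, and for some genes without Z2 a, are therefore given beside the results.

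**Figure D1:**
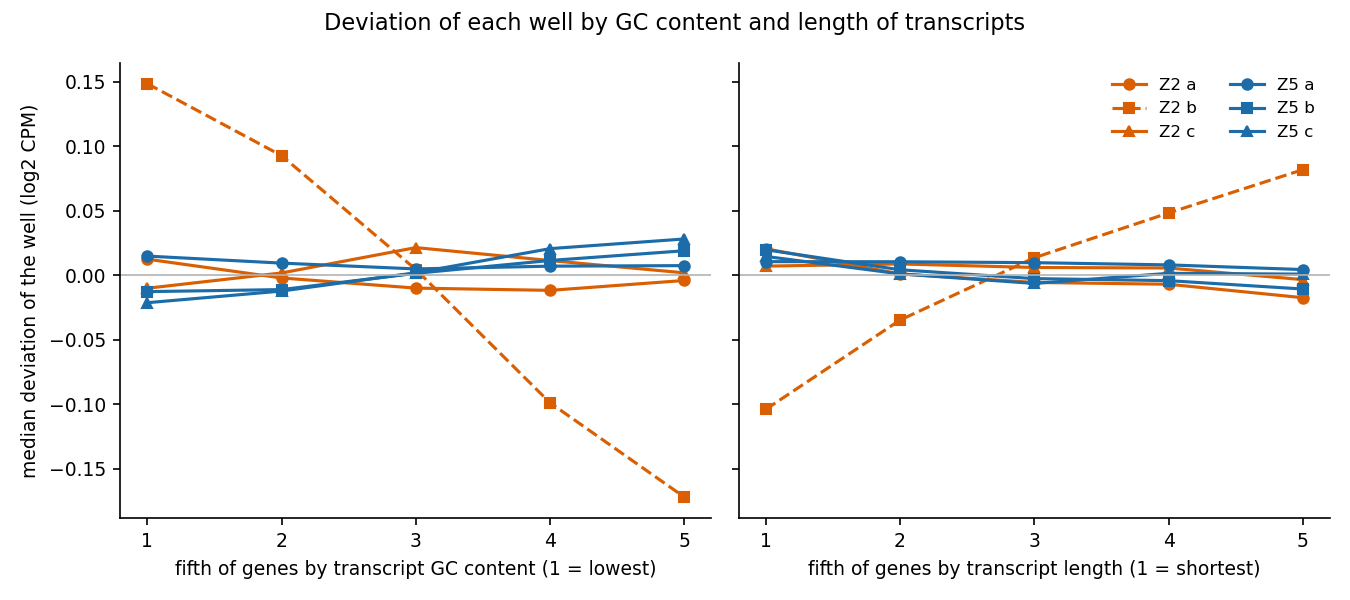
Median deviation of each well from the genes' mean over the 12 libraries (log2 CPM), for 5 equal bins of genes by transcript GC content (left) and by transcript length (right). Colours give the line and symbols the well. Z2 b falls from 0.15 to -0.17 with rising GC content, and the 5 other wells stay near 0.

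ZHX3, the labelled target, was present in both lines at close levels. It stood at 34.9, 33.8 and 34.8 CPM in Z2 a, b and c and at 33.5, 32.5 and 32.8 CPM in Z5 a, b and c. All Z5 wells lay below all Z2 wells, by a small margin. The log2 fold change of Z5 minus Z2 was -0.065 (SE 0.050, 95% interval -0.17 to 0.040; edgeR adjusted p = 0.647). Means were 33.0 CPM in Empty and 34.3 in Z9, so the gene count did not separate the labelled lines from the control, and a gene-level count does not show a small insertion or deletion.

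ZHX1, a partner of ZHX3 in dimers, had 38.7, 39.8 and 35.1 CPM in Z2 and 38.2, 37.6 and 34.8 in Z5, with overlapping wells. Z5 minus Z2 was -0.040 on the log2 scale (SE 0.067; edgeR adjusted p = 0.852), and this sign turned to 0.015 when GC content and length were modelled. ZHX2, which is known as a repressor of AFP in adult liver, had 104, 122 and 122 CPM in Z2 and 106, 110 and 109 in Z5, a log2 fold change of -0.099 (SE 0.061; edgeR adjusted p = 0.569). Without Z2 a, the lowest Z2 well, the ZHX2 value was -0.17 (unadjusted p = 0.0055; edgeR adjusted p = 0.106). NFYB, the subunit of NF-Y with the smallest p of the group, was at 21.7, 24.96 and 20.2 CPM in Z2 and 21.3, 19.9 and 19.8 in Z5 (log2 fold change -0.13, and -0.046 without Z2 b; edgeR adjusted p = 0.543). With all wells, of the 6 ZHX and NF-Y genes 0 passed the edgeR test in either direction, 0 had an unadjusted p under 0.05, and the interval of each lay within 0.32 of 0 on the log2 scale.

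Z2 and Z5 were the closest pair of lines by the median distance of their wells. The distance used here is the root mean square of the log2 CPM difference over the 11696 genes whose mean over the 6 wells was 1 log2 CPM or more. The 9 pairs of a Z2 with a Z5 well had distances of 0.130 to 0.276, with a median of 0.165. The median was 0.191 for Z2 with Z9, 0.181 for Z5 with Z9, and 0.292 to 0.315 for Empty with these 3 lines. Distances within Z5 were 0.146, 0.161 and 0.120, and distances within Z2 were 0.267, 0.161 and 0.224. The smallest distance within Z2, 0.161, was above 4 of the 9 distances between the lines. Z2 a lay at 0.130, 0.143 and 0.165 from Z5 a, b and c, and at 0.267 and 0.161 from Z2 b and c. Z2 c lay at 0.182, 0.133 and 0.140 from the Z5 wells. Z2 b was far from every well, at 0.276, 0.269 and 0.253 from those of Z5.

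**Figure D2:**
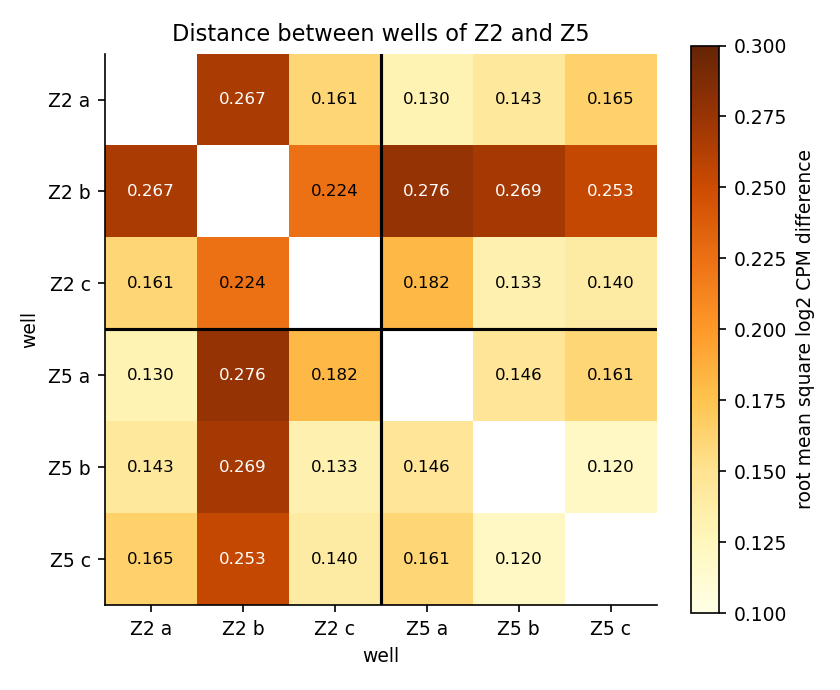
Root mean square log2 CPM difference over 11696 genes for each pair of the 6 wells, with black lines between the Z2 and the Z5 wells. The row of Z2 b holds the highest values, 0.224 to 0.276, and the distance of 0.130 between Z2 a and Z5 a is below all 3 distances within Z2.

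Most genes could be bounded to a small difference between the lines. The 95% interval of the log2 fold change lay wholly within 0.32 of 0 for 8622 of 15289 genes (56.4%). The interval of the ratio lay within 1.5-fold either way for 11817 (77.3%) and within 2-fold for 13651 (89.3%). The intervals are per gene and not simultaneous. A pair of one-sided tests against 1.5-fold, with Benjamini-Hochberg adjustment over all genes, placed 12135 genes inside that limit. The median log2 fold change over all genes was -0.0014, with quartiles of -0.088 and 0.092. Estimates beyond 2-fold were found for 100 genes, of which 1 had a mean of 1 log2 CPM or more, and estimates beyond 1.5-fold for 481, of which 13 did.

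The bound depended on the level of the gene. Of the 3302 genes at 6 log2 CPM and over, 98.8% lay within 1.5-fold, with a median half-width of the interval of 1.09-fold. Of the 2795 genes between 2 and 4 log2 CPM 96.4% did, and of the 1778 between 0 and 2 log2 CPM 63.6%. Of the 2727 genes under 0 log2 CPM 3.63% did, with a median half-width of 1.72-fold, and these made up 1584 of the 1638 genes that could not be bounded within 2-fold. For most genes under 0 log2 CPM a difference below this width was not detectable at this depth.

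**Figure D3:**
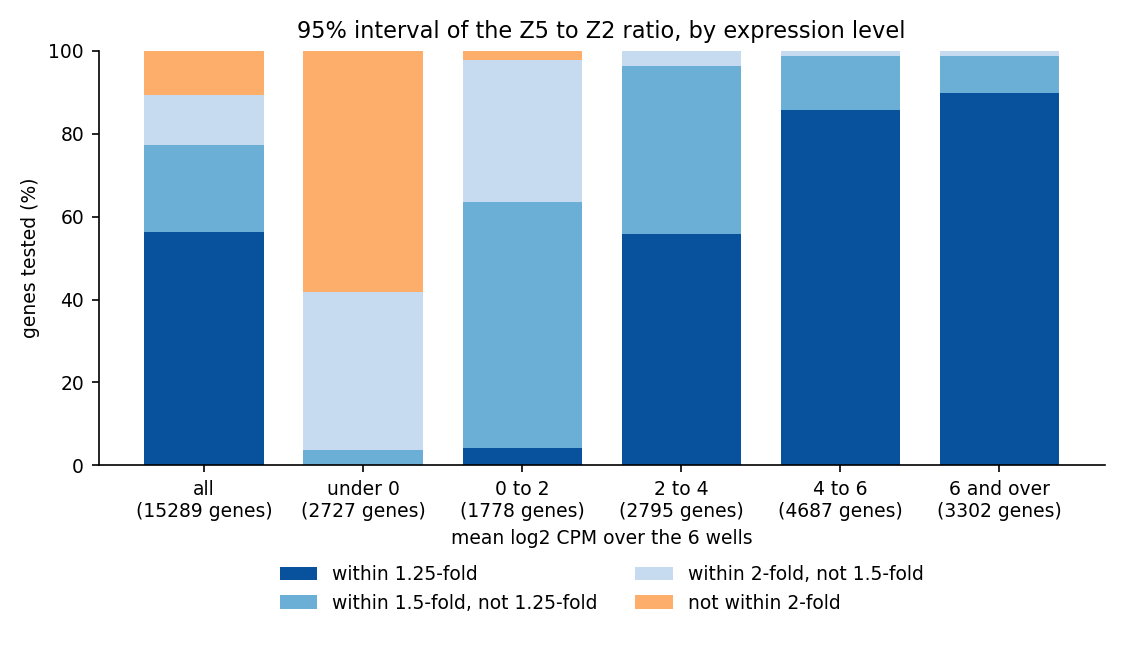
Share of genes tested (percent) whose 95% interval of the Z5 to Z2 ratio lies within each of 3 limits (0.32, 0.58 and 1 on the log2 scale, the last 2 being 1.5-fold and 2-fold), for all genes and by mean log2 CPM over the 6 wells. The share within 1.5-fold goes from 3.63% under 0 log2 CPM to 98.8% at 6 and over.

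edgeR's quasi-likelihood test called 1 gene higher in Z5 (0.00654% of the genes tested) and 0 lower (0%). At an unadjusted p under 0.05 it gave 868 genes higher (5.68%) and 703 lower (4.6%). DESeq2's Wald test called 11 genes (0.0719%), 7 higher (0.0458%) and 4 lower (0.0262%), and at an unadjusted p under 0.05 it gave 837 (5.47%) and 684 (4.47%). Its shares are of all 15289 genes, though 6521 of them got no DESeq2 adjusted p and could not be called. The wells of the lines did not overlap for 1046 genes higher in Z5 (6.84%) and 982 lower (6.42%). Without Z2 b edgeR again called 1 gene, higher in Z5 (0.00646%), and 828 genes (5.35%) had an unadjusted p under 0.05.

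The called gene was GPC4, glypican 4, a proteoglycan anchored to the cell surface by a lipid whose heparan sulfate chains bind growth factors such as FGF and WNT proteins. It had 13, 23 and 18 counts in Z2 a, b and c and 94, 85 and 77 in Z5 a, b and c, or 0.244, 0.442 and 0.339 CPM against 1.62, 1.63 and 1.35 CPM. Every Z5 well lay above every Z2 well by a wide gap, at a low level in both lines. GPC4 rose 4.47-fold in Z5 against Z2 (95% interval 3.20 to 6.25), a log2 fold change of 2.16 (SE 0.229; edgeR adjusted p = 4.7e-04). The 3 wells of Empty had 2, 1 and 3 counts, and those of Z9 103, 111 and 109. Z2 thus lay between Empty and Z5, and Z9 above Z5.

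The GPC4 difference was present in every fit. Over the 24 fits that gave it an adjusted p the log2 fold change ran from 1.97 without Z2 a to 2.39 without Z2 b, and it was called in 23, with adjusted p-values of 1.4e-05 to 0.0272. The fit of the Z2 and Z5 libraries alone with the well letter as a block gave an adjusted p of 0.0968. DESeq2 gave a log2 fold change of 2.17 (unadjusted p = 1.0e-14) and no adjusted p, since its filter on low mean counts left 6521 genes without one, GPC4 among them, so GPC4 is not among its calls. In the fit with GC content and length modelled the value was 2.19 (edgeR adjusted p = 3.7e-04).

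GPC4 lies on the X chromosome, at chrX:133300103-133415489 of RefSeq's GRCh38.p14 table, transcribed from the minus strand. The 250 bases before its first base, at chrX:133415490-133415739, are shown because it is the only gene called and because NF-Y boxes bear on the ZHX family. They are written 5′ to 3′ on the minus strand, with GC boxes (GGGCGG on either strand) in capitals.
GPC4 promoter: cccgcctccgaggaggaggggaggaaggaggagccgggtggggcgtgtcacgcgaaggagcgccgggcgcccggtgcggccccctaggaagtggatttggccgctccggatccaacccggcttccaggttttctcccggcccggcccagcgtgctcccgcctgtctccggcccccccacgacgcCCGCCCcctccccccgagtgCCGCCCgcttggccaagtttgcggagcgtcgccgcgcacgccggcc
The stretch is 76.0% G and C. It holds 2 GC boxes, which start at -66 and -46 from the first base of the gene, and 42.6% of 35116 RefSeq promoter stretches of the same length hold at least 1. The letters CCAAT, searched on both strands, gave 0 matches in this window, and 32.0% of the stretches hold them. A match is a description of the letters and not a binding site.

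GPC3, the glypican that is a marker of hepatoma and lies beside GPC4 on the X chromosome, at chrX:133535745-133985594, had an estimate of the opposite sign. It had 1547, 1873 and 1778 CPM in Z2 and 1504, 1546 and 1558 in Z5, with Z2 a inside the range of the Z5 wells. The log2 fold change was -0.17 (95% interval -0.30 to -0.042; edgeR adjusted p = 0.431). The GPC3 value was -0.11 without Z2 b, and -0.25 without Z2 a, where edgeR called it (adjusted p = 0.044). The syndecan SDC1, another carrier of heparan sulfate chains, had 152, 122 and 136 CPM in Z2 and 154, 150 and 150 in Z5, with a log2 fold change of 0.15 (edgeR adjusted p = 0.48) that was 0.073 without Z2 b. Among the 10 glypicans and syndecans 1 was called with all wells, GPC4 itself, against 0.00654% of all genes. The list was chosen with earlier results of these data known, so this is no result about the family. Without Z2 a 2 were called, GPC4 and GPC3, against 0.989% of all genes. The intervals of 7 lay within 0.32 of 0 on the log2 scale. The genes that build and trim heparan sulfate chains showed 0 calls among 20 tested, and the intervals of 17 lay within 1.5-fold. HS3ST3B1, a sulfotransferase acting on the chains, had the smallest p of that list, at 67.4, 71.3 and 71.5 CPM in Z2 and 74.1, 79.0 and 76.3 in Z5 (log2 fold change 0.13, edgeR adjusted p = 0.437).

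Besides GPC4, 5 genes had an interval wholly beyond 1.5-fold with an edgeR adjusted p of 0.408 each. All were low. C15orf26 had 0.056, 0.038 and 0.17 CPM in Z2 and 0.19, 0.35 and 0.33 in Z5. IL4I1, a secreted amino acid oxidase, was listed at 0, 0.058 and 0.094 CPM in Z2 and at 0.33, 0.19 and 0.23 in Z5. MIR1268A, a microRNA gene, had 0.19, 0.096 and 0.13 CPM in Z2 and 0.36, 0.33 and 0.53 in Z5. In the other direction SNORD35A, a small nucleolar RNA, had 0.51, 0.44 and 0.34 CPM in Z2 and 0.12, 0.15 and 0.18 in Z5, and BREA2, a long noncoding RNA, 0.30, 0.21 and 0.32 against 0.069, 0.12 and 0.070. The wells of the lines did not overlap for any of the 5, and for 13.3% of all genes. The 5 were chosen from these same wells, so this adds no support. The strand setting of the counting is not given in the sources used here, so counts of genes that overlap others are uncertain.

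**Figure D4:**
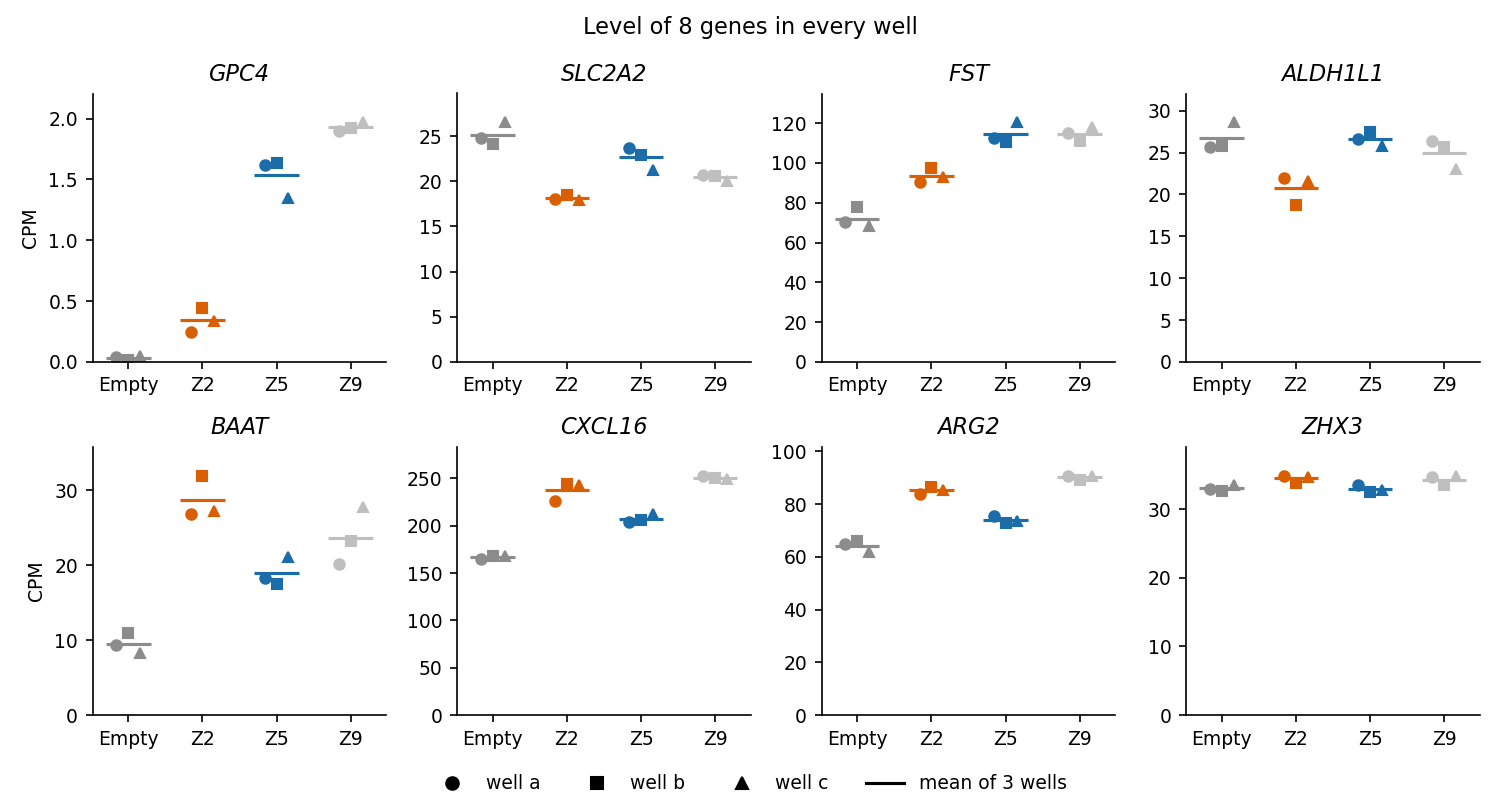
Level (CPM, axes from 0) of GPC4, of 6 of the genes called by DESeq2 and of ZHX3 in each well of the 4 lines, with symbols for wells a, b and c and a bar at the mean of 3 wells. GPC4 is at 0.244 to 0.442 CPM in Z2 and 1.35 to 1.63 in Z5, while ZHX3 has means of 32.9 to 34.5 CPM in all lines.

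The 11 genes that DESeq2 called had an edgeR adjusted p of 0.408 each. The wells of the lines did not overlap for any of the 11, and for 13.3% of all genes. The 11 were chosen by p in these same wells, so this adds no support. They include the transporter SLC2A2 and the enzymes ALDH1L1, SARDH, GLUD1, BAAT and ARG2, and such genes were not counted over all genes tested. Their fold changes and SE below are those of edgeR. SLC2A2, the glucose transporter GLUT2 of hepatocytes, had 18.1, 18.5 and 17.9 CPM in Z2 and 23.7, 22.9 and 21.3 in Z5. The Z2 wells were tightly grouped below the Z5 wells. The log2 fold change was 0.32 (SE 0.063; DESeq2 adjusted p = 0.0114), and it was 0.33 without Z2 b.

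FST, follistatin, a secreted protein that binds activins, had 90.2, 97.4 and 92.7 CPM in Z2 and 112, 111 and 120 in Z5. The gap between the lines was wider than the spread in either. Its log2 fold change was 0.29 (SE 0.057; DESeq2 adjusted p = 0.0114) and 0.32 without Z2 b.

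Further genes that DESeq2 called higher were ALDH1L1, SARDH and GLUD1. ALDH1L1, which oxidises formyl-tetrahydrofolate in the cytosol, had 22.02, 18.7 and 21.6 CPM in Z2 and 26.6, 27.5 and 25.8 in Z5, a log2 fold change of 0.36 (SE 0.075; DESeq2 adjusted p = 0.0162). SARDH, the mitochondrial sarcosine dehydrogenase, had 35.6, 30.9 and 35.3 CPM in Z2 and 41.8, 39.9 and 42.4 in Z5. Its log2 fold change was 0.29 (SE 0.063, DESeq2 adjusted p = 0.0425). GLUD1, glutamate dehydrogenase, had 624, 607 and 610 CPM in Z2 and 695, 680 and 669.5 in Z5, a log2 fold change of 0.15 (SE 0.046; DESeq2 adjusted p = 0.0493), and has a near-identical copy. For ALDH1L1 and SARDH Z2 b was the lowest well, and without it the values were 0.29 and 0.22.

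The 2 other genes higher in Z5 were CCS and TCEA2. CCS, the chaperone that loads copper into superoxide dismutase, had 14.7, 12.1 and 14.4 CPM in Z2 and 17.2, 16.9 and 20.9 in Z5. Its log2 fold change was 0.41 (SE 0.089, DESeq2 adjusted p = 0.0196). TCEA2, a transcription elongation factor, had 19.2, 13.8 and 16.5 CPM in Z2 and 20.6, 22.5 and 25.7 in Z5, a log2 fold change of 0.48 (SE 0.10; DESeq2 adjusted p = 0.0162). Z2 b was the lowest well for both, and without it the values were 0.33 and 0.36.

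BAAT, which conjugates bile acids with glycine or taurine, differed most among the 4 genes that DESeq2 called lower. It had 26.8, 32.0 and 27.2 CPM in Z2 and 18.2, 17.4 and 21.2 in Z5, and was at a mean of 9.51 in Empty and 23.7 in Z9. All Z5 wells lay below all Z2 wells, and Z2 b was the highest. The log2 fold change was -0.60 (SE 0.12; DESeq2 adjusted p = 0.00897), and -0.51 without Z2 b.

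ARG2, the mitochondrial arginase, had 83.85, 86.5 and 85.4 CPM in Z2 and 75.6, 72.9 and 73.5 in Z5. Its log2 fold change was -0.20 (SE 0.046, DESeq2 adjusted p = 0.0162). CXCL16, a chemokine that is also a scavenger receptor, had 226, 244 and 243 CPM in Z2 and 204, 206 and 212 in Z5, a log2 fold change of -0.20 (SE 0.047; DESeq2 adjusted p = 0.0162). FAM135A had 89.6, 107 and 83.3 CPM in Z2 and 76.9, 74.1 and 73.5 in Z5. Its log2 fold change was -0.32 (SE 0.071, DESeq2 adjusted p = 0.0484). Z2 b was the highest Z2 well for all 3, and without it the values were -0.19, -0.18 and -0.21.

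Of the 16 protein-coding genes that were at least at 1 log2 CPM, did not overlap between the lines and had the smallest edgeR p in each direction, 10 are among those above. The others were PPP1R9B (spinophilin, a targeting subunit of protein phosphatase 1) at 0.33 and EVI5L at 0.38, and, in the other direction, SMIM3 at -0.25, ATP6V1E1 (a subunit of the vacuolar proton pump) at -0.27, NGLY1 (which removes sugar chains from misfolded proteins) at -0.24 and B2M (the light chain of MHC class I) at -0.22. B2M had 268, 304 and 271 CPM in Z2 and 241, 246 and 235 in Z5. The edgeR adjusted p was 0.408 for each of the 16. All 16 kept an unadjusted p under 0.05 without Z2 b, where 5.35% of all genes had one. They were chosen by p in wells that this fit shares, so this is no independent support. Without Z2 a edgeR called PPP1R9B (adjusted p = 0.00852), ATP6V1E1 (0.0269), NGLY1 (0.0379), B2M (0.0473) and SMIM3 (0.0474) of these 6, and EVI5L had an adjusted p of 0.0571.

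Among protein-coding genes at 1 log2 CPM or more, with an unadjusted p under 0.05 and no overlap of wells, PRAME and CERS1 had the highest estimates and PLA2G2A and BAAT the lowest. PRAME, a cancer-testis antigen, had 1.62, 2.25 and 2.33 CPM in Z2 and 3.13, 3.665 and 3.00 in Z5, with a mean of 0.035 in Empty and 1.86 in Z9. Z5 minus Z2 was 0.66 on the log2 scale (SE 0.18; edgeR adjusted p = 0.408). PLA2G2A, a secreted phospholipase, had 4.59, 5.97 and 5.61 CPM in Z2 and 3.58, 3.03 and 3.70 in Z5, a log2 fold change of -0.65 (SE 0.17; edgeR adjusted p = 0.408). CERS1, a ceramide synthase, had 5.04, 2.63 and 4.37 CPM in Z2 and 5.10, 5.97 and 5.89 in Z5. Its log2 fold change of 0.49 (SE 0.16, edgeR adjusted p = 0.417) was 0.26 without Z2 b, the lowest well.

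Cholesterol synthesis genes were the list with the highest median. Of 25 tested 0 were called by edgeR, 10 had an unadjusted p under 0.05 and a higher level in Z5, against 5.68% of all genes, and 0 a lower one. The estimate was positive for 23, with a median of 0.15 beside -0.0014 over all genes. The wells of 8 did not overlap, all higher in Z5, against 6.84% of all genes. These genes are known to be regulated together by SREBP2, so they are not independent of each other.

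Members from early and late steps of the pathway showed the pattern. HMGCS1, which makes HMG-CoA, had 324, 335 and 336 CPM in Z2 and 351, 394 and 398 in Z5 (log2 fold change 0.20, 95% interval 0.040 to 0.36). CYP51A1, which demethylates lanosterol, had 249, 234 and 271 CPM in Z2 and 277, 302 and 296 in Z5 (0.22, 0.076 to 0.35). For both the Z5 wells all lay above the Z2 wells. TM7SF2, a sterol reductase, had 56.8, 43.4 and 60.6 CPM in Z2 and 64.5, 69.4 and 71.3 in Z5 (0.35, 0.10 to 0.60). Its wells also did not overlap, and Z2 b was the lowest. SQLE, squalene epoxidase, overlapped between the lines at 330, 336 and 371 CPM in Z2 and 343, 383 and 367 in Z5 (0.075, -0.067 to 0.22).

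The count of 10 moved with single wells. It was 6 without Z2 b, with a median of 0.10, 18 without Z2 c, 5 without Z5 b and 6 without Z5 c. Over all genes, the number at that p in either direction was 1571 with all wells. It fell to 828 (Z2 b left out), 1108 (Z5 b) and 1134 (Z5 c), and rose to 1955 (Z2 c). The list thus moved in the same direction as the genes at large, and its changes are not specific to it. Leaving out Z2 a gave a list median of 0.0996. The list's counts with Z2 a or Z5 a left out are not given here. TM7SF2 went from 0.35 to 0.22 without Z2 b. With GC content and length modelled the count of cholesterol synthesis genes was 11, against 4.8% of all genes, and the median 0.15.

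Transcription factors of hepatocytes were the list with the next highest median. Of 21 tested 0 were called, 4 had an unadjusted p under 0.05 with a higher level in Z5, against 5.68% of all genes, 0 with a lower one, and the median was 0.11, or 0.094 without Z2 b. RXRA, the partner of many nuclear receptors, had 97.8, 95.7 and 107 CPM in Z2 and 112, 114 and 118 in Z5 (log2 fold change 0.19, edgeR adjusted p = 0.408). HNF4A, a regulator of liver identity, had 293, 261 and 309 CPM in Z2 and 312, 332 and 325 in Z5 (0.17, edgeR adjusted p = 0.431), and the value was 0.10 without Z2 b, the lowest well. FOXA1 had 63.6, 62.0 and 60.5 CPM in Z2 and 79.0, 66.4 and 65.8 in Z5, with Z5 a the highest. The intervals of 19 of the 21 lay within 1.5-fold.

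In the lists of fat and drug metabolism edgeR called 0 genes. Fatty acid and triglyceride synthesis had 3 of 21 with an unadjusted p under 0.05, all higher in Z5, against 5.68% of all genes, and a median of 0.070. FASN, the fatty acid synthase, had 1580, 1606 and 1736 CPM in Z2 and 1797, 1922 and 2019 in Z5 (log2 fold change 0.22, edgeR adjusted p = 0.408). Fatty acid oxidation and ketone synthesis had 3 of 22, all higher, and a median of 0.077, led by ECHS1, an enoyl-CoA hydratase, at 0.21. Phase I drug metabolism had 4 of 24, all higher. Its member ADH6, an alcohol dehydrogenase, had 49.0, 49.0 and 48.5 CPM in Z2 and 56.8, 55.6 and 53.8 in Z5 (0.18, edgeR adjusted p = 0.417). Among conjugating enzymes SULT2A1, a sulfotransferase of steroids, stood at 0.16. Without Z2 b, where 2.94% of all genes were higher at that p, the counts of the first 3 lists were 2, 4 and 2.

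Glycolysis genes and hypoxia targets had 4 of 30 with an unadjusted p under 0.05 and a lower level in Z5, against 4.6% of all genes, 1 with a higher level, and a median of -0.050. HK1, a hexokinase, had 15.3, 15.9 and 17.1 CPM in Z2 and 12.4, 12.8 and 14.5 in Z5, with a mean of 6.75 in Empty (log2 fold change -0.28, edgeR adjusted p = 0.408). SLC2A1, the glucose transporter GLUT1, had 1399, 1654 and 1651 CPM in Z2 and 1326, 1412 and 1449 in Z5, with Z2 a inside the range of the Z5 wells (-0.17, edgeR adjusted p = 0.449). Interferon response and antigen presentation had 3 of 26 lower, B2M, OAS1 and OAS3, and 0 higher, and its median was -0.034 with 11 positive estimates. Of both lists edgeR called 0 with all wells, and B2M without Z2 a. Without Z2 b the glycolysis list had 1 lower and a median of -0.028.

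In the lists of mitosis and DNA replication edgeR called 0 genes. The intervals of all 30 mitosis genes and of 29 of 30 DNA replication genes lay within 1.5-fold. That is near the share of genes at such levels, 96.4% between 2 and 4 log2 CPM and 98.8% at 6 and over. Unadjusted p-values under 0.05 were found for 1 higher and 1 lower mitosis gene and for 0 replication genes. NDC80, a kinetochore protein, was the mitosis gene with the smallest p, at 8.44, 8.70 and 8.335 CPM in Z2 and 7.64, 7.54 and 7.12 in Z5 (log2 fold change -0.19, edgeR adjusted p = 0.468). CCNE2, a cyclin of the entry into S phase, was the replication gene with the smallest p, at -0.27 (edgeR adjusted p = 0.545). The median of the mitosis list was -0.003 with all wells and 0.076 without Z2 b. All 40 cytosolic ribosomal protein genes and 34 of 35 genes of the respiratory chain and ATP synthase also lay within 1.5-fold, again near that share. RPLP1, an acidic protein of the ribosomal stalk, had 953, 728 and 892 CPM in Z2 and 987, 992 and 1045 in Z5 (0.23, edgeR adjusted p = 0.417), and 0.13 without Z2 b. COX7B, a small subunit of cytochrome oxidase, had 45.4, 47.4 and 45.2 CPM in Z2 and 38.5, 42.6 and 37.1 in Z5 (-0.22, edgeR adjusted p = 0.408).

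Plasma proteins are a main product of hepatocytes, and edgeR called 0 of the members listed here. AFP had 11746, 14096 and 11481 CPM in Z2 and 12122, 11769 and 11396 in Z5, with overlapping wells and Z2 b the highest. Its log2 fold change was -0.081 (95% interval -0.23 to 0.069), and the sign turned to 0.018 without Z2 b. Of 29 plasma transport proteins and protease inhibitors 27 lay within 1.5-fold and 0 were called. RBP4, the carrier of retinol, had the smallest p of them. It had 376, 369 and 417 CPM in Z2 and 431, 436 and 442 in Z5 (0.17, edgeR adjusted p = 0.408). PLG, plasminogen, had 16.8, 19.3 and 19.4 CPM in Z2 and 20.5, 23.4 and 23.3 in Z5, with a mean of 1.66 in Empty (0.28, edgeR adjusted p = 0.449). C8A, a subunit of complement, was at 0.25, FGL1, a fibrinogen-like protein, at 0.15, and LIPC, hepatic lipase, at -0.19, with edgeR adjusted p-values of 0.408, 0.408 and 0.471. The LIPC value was -0.087 without Z2 b.

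The other 10 lists gave 0 edgeR calls with all wells. Their members with the smallest p were KLF4, a zinc finger transcription factor, at -0.49 (4.57, 4.96 and 3.99 CPM in Z2 and 3.55, 2.78 and 3.30 in Z5), SLC39A5, a zinc transporter, at 0.22, ITGB1, an integrin, at -0.18, RNF43, a negative regulator of WNT receptors, at -0.19, AJUBA, a LIM-domain protein, at 0.18, BAX, a pore-forming protein of apoptosis, at 0.21, PGD, of the pentose phosphate pathway, at 0.13, PHGDH, of serine synthesis, at 0.20, HIST1H4C, a histone with near-identical copies, at 0.71, and SNHG7, a host of small nucleolar RNAs, at 0.29. Their edgeR adjusted p-values ranged from 0.408 for KLF4 to 0.548 for PHGDH. Z2 b was the lowest Z2 well for SLC39A5, AJUBA, BAX, PGD, PHGDH and SNHG7, and without it their values were 0.12, 0.091, 0.087, 0.058, 0.052 and 0.11. That of ITGB1 was -0.086 without Z2 b. Without Z2 a edgeR called ITGB1 at -0.26 (adjusted p = 0.049) and the p53 targets BAX at 0.33 (adjusted p = 0.044) and PHLDA3 at 0.41 (adjusted p = 0.0496; 0.25 with all wells and 0.099 without Z2 b). The medians of the 30 lists lay between -0.053 and 0.15, and between -0.049 and 0.10 without Z2 b.

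**Figure D5:**
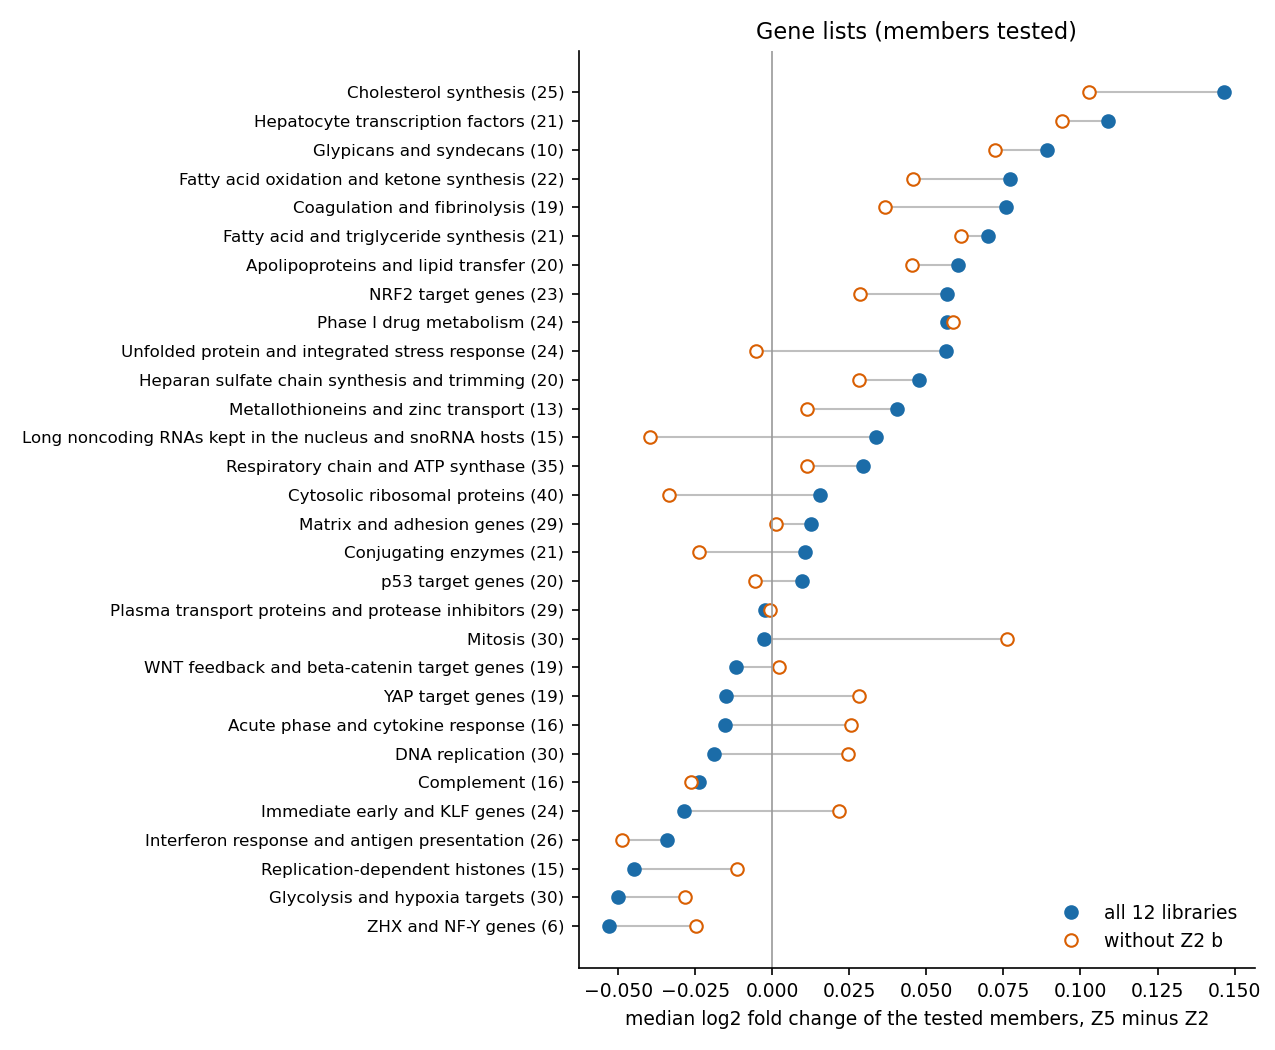
Median log2 fold change (Z5 minus Z2) of the tested members of each of 30 gene lists, with the number tested in brackets, from all 12 libraries (filled) and without Z2 b (open). Cholesterol synthesis has the highest median, 0.15 with all libraries and 0.10 without Z2 b, and mitosis moves from -0.003 to 0.076.

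The wells of Z2 deviated more from each other than those of Z5. A well's deviation is its log2 CPM minus the mean of the other 2 wells of its line, and its root mean square over 11696 genes was 0.189, 0.233 and 0.142 for Z2 a, b and c and 0.141, 0.107 and 0.121 for Z5 a, b and c. More than 0.5 on the log2 scale was reached by 213, 388 and 56 genes in the Z2 wells and by 87, 24 and 47 in the Z5 wells. In Z2 b 302 of the 388 were lower. Z2 b thus deviated most and Z5 b least.

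The genes that deviated most in single wells were not among the called genes. PABPN1, a poly(A)-binding protein of the nucleus, had 48.7, 13.9 and 29.7 CPM in Z2 and 51.5, 45.4 and 46.3 in Z5, so that it stood out in both Z2 a (1.26) and Z2 b (-1.45). CSNK1E, a casein kinase, had 4.81, 1.65 and 2.05 CPM in Z2 and 4.51, 4.32 and 4.94 in Z5, with Z2 a among the Z5 wells. KLHDC7B had 6.78, 1.98 and 8.11 CPM in Z2 and 6.03, 7.54 and 3.91 in Z5, and CCDC15 2.74, 3.86 and 1.67 against 2.84, 2.13 and 2.79. In Z5 the farthest genes were low: TLE6, a corepressor, had 1.14, 2.57 and 2.74 CPM, PEAR1, a platelet receptor, 1.14, 2.15 and 2.80, UCN2, a peptide hormone, 1.34, 2.44 and 1.58, ZNF284 2.45, 1.52 and 2.51, and ERVH48-1, an endogenous retroviral envelope gene, 1.34, 1.59 and 2.74. The log2 fold changes of these 9 genes between the lines had edgeR adjusted p-values from 0.466 to 0.984. Overlapping transcription units and the unknown strand setting make counts of PABPN1 and CSNK1E uncertain.

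The count of called genes turned on 1 well. With any 1 of the other 11 libraries left out edgeR called 1 gene, and without Z2 a it called 153 (0.989% of 15477 genes tested), 118 higher in Z5 (0.762%) and 35 lower (0.226%), while 2911 (18.8%) had an unadjusted p under 0.05. Of the 153, 1 was called with all wells, 134 had an unadjusted p under 0.05 with all wells, and 87 did without Z2 b. Over all genes tested the shares were 10.3% with all wells and 5.35% without Z2 b. All 153 had the same sign without Z2 b. These fits share wells with the fit that chose the 153, so such agreement was partly built in. Z2 a lay inside the range of the Z5 wells for 59 of them. On a scale where the mean of Z2 b and c is 0 and the mean of Z5 is 1, the median position of Z2 a was 0.868. The 153 were chosen for the distance of Z2 b and c from Z5. A position of Z2 a nearer to Z5 was therefore partly built in, and the same values over all genes were not computed.

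The leading genes of that fit show the split within Z2. TXNDC5, a protein disulfide isomerase, had 40.4, 22.1 and 28.6 CPM in Z2 and 44.1, 39.1 and 43.7 in Z5. TMEM256, a small membrane protein, had 27.9, 10.99 and 16.4 CPM in Z2 and 28.1, 27.2 and 29.3 in Z5. Z2 a was at the level of Z5 in both, and Z2 b was the lowest well. Without Z2 a their log2 fold changes were 0.74 and 1.04 (edgeR adjusted p = 0.00746 and 0.00852), and with all wells 0.48 and 0.61 (edgeR adjusted p = 0.437 and 0.483). Without Z2 b they were 0.29 and 0.35. ATPIF1, the inhibitor of the mitochondrial ATP synthase, had 34.8, 26.4 and 29.6 CPM in Z2 and 37.4, 36.9 and 37.7 in Z5 (0.41 without Z2 a and 0.30 with all wells).

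KIZ, a centrosomal protein, had 110, 137 and 127 CPM in Z2 and 90.9, 106 and 105 in Z5 (-0.39 without Z2 a and -0.31 with all wells). PAM, the enzyme that amidates peptide hormones, had 141, 183 and 170 CPM in Z2 and 126, 138 and 142 in Z5 (-0.38 and -0.28). KIAA1715, a protein of tubular endoplasmic reticulum, had 54.2, 74.3 and 65.8 CPM in Z2 and 53.5, 58.3 and 57.0 in Z5 (-0.32 and -0.20, and -0.093 without Z2 b). Z2 b was the highest well for all 3, and Z2 a lay nearest to Z5. Of the 11 genes that DESeq2 called with all wells, edgeR called 10 without Z2 a, the exception being GLUD1 (edgeR adjusted p = 0.104). The 2 fits share all wells but Z2 a, so this is no independent support.

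The genes called without Z2 a differed in GC content and length by direction. The median GC content of the longest transcript was 58.2% for the 118 higher in Z5 and 44.6% for the 35 lower, beside 49.5% for all genes tested, and the median lengths were 2235, 3580.5 and 3138 bases. Z2 b, whose levels moved with GC content and length in that direction, is 1 of the 2 Z2 wells left in that fit. With GC content and length modelled as offsets in each library edgeR called 184 genes (1.23%) without Z2 a, 117 higher (0.783%) and 67 lower (0.448%), of which 105 were among the 153. With the same offsets and all wells it called 1 gene (0.00677%), GPC4, higher in Z5, and 1426 genes (9.66%) had an unadjusted p under 0.05.

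The GC pattern of Z2 b was also visible in the fold changes between the lines. The median log2 fold change went from -0.061 in the bin of genes with the lowest GC content to 0.071 in the bin with the highest, and from -0.008 to 0.021 without Z2 b. By chromosome it ran from -0.054 on chromosome 13 to 0.051 on chromosome 19, where the median GC contents of the genes were 43.1% and 59.1%. Without Z2 b the range was -0.015 to 0.018, and with GC content and length modelled -0.016 to 0.009. Chromosome 20, which carries ZHX3, had a median of 0.001 over 447 genes and 0 calls.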

How the data were processed

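RNA was sequenced from 12 libraries, 3 wells of each of 4 HepG2 lines, of which the 6 of Z2 and Z5 are compared here. The authors deposited 1 table of raw counts, with a row for each gene symbol. The submitters' processing notes name STAR, featureCounts and hg38, and the labels' protocols a NEBNext Ultra II library kit. Not given in the sources used here: versions, annotation, strand setting and the rule for multi-mapping reads. Counts of overlapping genes and near-identical copies are uncertain for that reason. Samples were grouped by their titles.

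The main test was edgeR 4.0.16 (R 4.3.3). After filterByExpr with groups, 15289 genes remained. A robust quasi-likelihood model of 4 group means with TMM scaling was fitted to all 12 libraries (8 residual degrees of freedom, common biological coefficient of variation 0.0696). Benjamini-Hochberg adjusted p-values under 0.05 were called. The SE was taken as log2 fold change over the root of F, and 95% intervals use the t quantile of the total degrees of freedom. Log2 CPM used a prior count of 2. Within Z2 and Z5 chi-square per degree of freedom between wells was 6.01 to 43.0, above sampling noise, so no 2 libraries were counted as 1; libraries made again from the same RNA cannot be told apart by this. The fit was tested on simulated data with the same spread of each gene in all libraries and no effect of single wells. That test does not bear on the GC pattern of Z2 b or the wider spread within Z2.

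Gene symbols were looked up in RefSeq for GRCh38.p14 (23758 by current symbol, 1562 by a synonym, 1165 unmatched), promoter letters come from RefSeq on that build, and length and GC content from GENCODE release 29 (24644 genes). Members and the 30 gene lists were chosen with earlier results of these data known. Named genes are those called by edgeR or DESeq2 1.42.0, the 8 higher and 8 lower protein-coding genes with the smallest p among those at 1 log2 CPM or more without overlap of wells, the 2 with the largest change each way, the ZHX genes, 3 leading genes each way without Z2 a, the 2 farthest genes of each well and 1 gene per list, 67 in all. HMGCS1, TM7SF2, SQLE, GPC3, SDC1, HNF4A, FOXA1, SLC2A1, OAS1, OAS3, AFP, PHLDA3 and the low genes beyond 1.5-fold were named after their values were seen. Some members of the lists are not reported here. Alternatives were DESeq2 size factors and its Wald test, limma 3.58.1 with a mean trend, other filters, fits of fewer lines, no robust estimation, the well letter as a block, a minimum fold of 1.25 and each library left out. Offsets by GC content and length (lowess span 0.3) and voom with library quality weights were added after the data were seen.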

Additional observations from a re-analysis of the deposited data

Results flagged for a closer look

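GPC4 differed between the Z5 and Z2 lines, which carry the same genotype label, by a log2 fold change of 2.16 in the edgeR test of the difference itself (95% interval 1.68 to 2.64).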

How the results depend on the processing

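The count of called genes was 1 in the reported fit and in most alternatives, and it was 11 with the DESeq2 Wald test and 1 to 153 with each library left out in turn, the 153 arising without Z2 a. It was 184 with GC content and length modelled and Z2 a left out, an alternative added after the data were seen. The cause was not tested. Whether the well letters pair the lines is not given in the sources used here. The correlations of the deviations of same-lettered wells were 0.158, -0.041 and 0.039 for a, b and c. Those of wells with different letters ran from -0.133 to 0.094. With the letter as a block over all libraries edgeR called 1 gene, and 1900 had an unadjusted p under 0.05, beside 1571 without it. With a block on the Z2 and Z5 libraries alone edgeR called 0, and 1202 had an unadjusted p under 0.05, beside 945. In that fit GPC4 was at 2.17 (edgeR adjusted p = 0.0968).

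The number of genes bounded within 1.5-fold was 11171 to 11921 over all alternatives that give it. Of 2072 values of the 84 named genes under the alternatives 1994 kept direction and side of the threshold, 63 passed it newly, 1 no longer passed it (GPC4, above) and 14 turned in sign. ZHX1 went to 0.015 with GC content and length modelled, 0.057 with Z2 a left out as well, and 0.016 with voom quality weights. With each library left out in turn KLHDC7B (0.045) ran from -0.36 without Z2 b to 0.40, also at -0.18 without Z5 b, CCDC15 (-0.089) from -0.35 to 0.23 without Z2 b, also at 0.029 without Z5 b, TLE6 from -0.27 to 0.26 without Z5 a, also at 0.040 without Z2 c, ZNF284 from -0.31 to 0.00714 without Z5 b, and AFP from -0.14 to 0.018 without Z2 b. KLHDC7B was at -0.022 with GC content and length modelled and -0.24 with voom, and CCDC15 at 0.28 with voom. The minimum fold alternative gives no intervals. Depth limits what can be said of genes under 0 log2 CPM, and 3 wells of 1 line each cannot show how independently made lines would vary.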
